A study of Mus musculus with 11 samples.

Results

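The 43 genes described here encode the enzymes of 3 pathways of central carbon metabolism, with 16 genes of glycolysis, 7 of the pentose phosphate pathway and 20 of the tricarboxylic acid (TCA) cycle and the reactions that feed it. They were chosen by name from the table of 12932 genes, and all 43 were present under 1 row each. Glycolysis splits glucose into pyruvate in the cytosol and gives ATP and NADH. The pentose phosphate pathway branches from it at glucose 6-phosphate, yields NADPH in its oxidative branch and exchanges sugars with glycolysis in its non-oxidative branch. The TCA cycle oxidizes acetyl-CoA in mitochondria and exports citrate for lipid synthesis, and resident alveolar macrophages (AMs), which clear surfactant lipids, are known for a metabolism that leans on lipids and oxidative phosphorylation.

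RNA was measured by RNA-seq in AMs sorted from 9-week-old C57BL/6J mice, males and females, at 40000 cells per library. Every mouse carried floxed alleles of *Rxra* and *Rxrb*, which encode the nuclear receptors RXRα and RXRβ. Mature AMs (mAMs, CD11b-/SiglecF+) came from CD11cCre- Rxrabfl/fl littermates (mAM_WT, called control mAMs, 4 libraries) and from CD11cCre+ Rxrabfl/fl mice (mAM_KO, called RXR-deficient mAMs, 4 libraries), and immature AMs (ImmAMs, CD11b+/SiglecF+) came from CD11cCre+ Rxrabfl/fl mice (ImmAM_KO, 3 libraries). The Cre is driven by the promoter of CD11c (*Itgax*), which other CD11c+ cells also use, and no ImmAMs of control mice were measured, so RXR loss and the immature state cannot be told apart in ImmAMs. Values are CPM, reads scaled to a common TMM-adjusted library size, and 1 unit on the log2 scale is a doubling. Group means ± SD and tests use 4 control, 3 RXR-deficient (replicates 1 to 3) and 3 ImmAM libraries, the number used by the study. The library labelled mAM_KO replicate 4 is given beside them, and results are also given with it in the fit. Which mAM_KO library the study left out was not established here.

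Between 16659960 and 37873532 reads were counted per library, and the 43 genes took 0.842% to 0.907% of them in control mAMs, 0.792% to 0.812% in RXR-deficient mAMs, 0.911% in mAM_KO replicate 4 and 0.663% to 0.695% in ImmAMs. *Itgam* (CD11b) followed the sort, at 3.52 to 3.85 CPM in control mAMs, 3.93 to 9.95 CPM in RXR-deficient mAMs and 168 to 174 CPM in ImmAMs. *Siglecf* stood at 244 to 264, 198 to 241 and 19.3 to 19.7 CPM, so its RNA was far lower in ImmAMs although all 3 groups are labelled SiglecF+. The summed reads of *Rxra* stood at 310.2 to 380 CPM in control mAMs, 334 to 351 CPM in RXR-deficient mAMs, 419 CPM in mAM_KO replicate 4 and 283 to 305 CPM in ImmAMs. Those of *Rxrb* stood at 51.4 to 72.1, 39.3 to 52.8, 55.3 and 31.9 to 35.2 CPM. These are totals over whole genes that do not show the deleted exons, so they do not check the deletion. The study measured the mRNA of both genes separately and reports that deletion was efficient in mature and immature AMs of this Cre line. The 16 genes of an alveolar macrophage list, *Siglecf* among them, summed to 26781 to 35249 CPM in control mAMs and 32250 to 38261 CPM in RXR-deficient mAMs. Their sum in ImmAMs was 27350 to 29308.5 CPM, inside the control range, though abundant genes weigh most in such sums. The sum does not show that each member was kept. *Siglecf* was far lower in ImmAMs, as given above, and *Marco* stood at 310 to 377, 281 to 286 and 10.9 to 13.8 CPM. The other members are not given singly here. ImmAMs also differed in genes of other cell types and of the cell cycle. The 8 monocyte genes present of a list of 10 summed to 99.4 to 115 CPM in control mAMs, 107 to 164 CPM in RXR-deficient mAMs and 463 to 483 CPM in ImmAMs. *Itgam* is 1 of these 8 genes, so 168 to 174 CPM of the ImmAM sum belongs to the marker used for the sort. *Ly6c2* and *Plac8* were not among the 12932 genes. The 7 interstitial macrophage genes present of 10 summed to 84.1 to 156, 71.8 to 156 and 1309 to 1482 CPM, and to 263 CPM in mAM_KO replicate 4. *Folr2*, *Lyve1* and *Ccl12* were not among the 12932 genes. The 5 neutrophil genes present of 8 summed to 30.7 to 39.5, 31.6 to 40.6 and 51.7 to 61.9 CPM. The 3 dendritic cell genes present of 7 summed to 5.92 to 7.89, 6.82 to 9.07 and 23.2 to 25.2 CPM. *Ly6g*, *Camp*, *Ngp*, *Flt3*, *Xcr1*, *Cd209a* and *Ccr7* were not among the 12932 genes. The 10 genes of cycling cells summed to 609 to 758, 508 to 622 and 159 to 172 CPM. The part of these differences in the results on ImmAMs was not tested, and in sorted bulk cells fewer cells of a type and less RNA per cell cannot be told apart.

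Upstream sequences of the enzyme genes are shown first, since many of them moved together in ImmAMs and since RXR heterodimers and hypoxia-inducible factors are known to act on genes of these pathways. The 250 bases before each RefSeq transcription start (GRCm38.p6) were searched on both strands for AGGTCA repeats with 1 base between them (DR1, the element of RXR heterodimers with PPARs), for ACGTG and GCGTG (the core letters of hypoxia-inducible factor elements) and for the E-box CACGTG, which contains ACGTG. Of the 43 genes, 41 had an entry (*Idh3a* and *Me2* had none). These genes have 60 windows, since a gene can have several starts. ACGTG stood in 21 of the 60 windows (35%) and in 16.6% of all 32851 windows, GCGTG in 29 (48.3%) and in 28.2%, and CACGTG in 6 (10%) and in 6.02%. Windows of the same gene can overlap and count a site more than once, as for *Ogdh* and *Aldoa*, so these shares by window do not show an excess by gene. By gene, at least 1 window held ACGTG for 14 of the 41 genes, GCGTG for 23 and CACGTG for 4. The share by gene was not computed over all genes, so these counts are a description only. The DR1 letters stood in 11 of all windows (0.0335%) and before 0 of the 41 genes, which says only that these letters are not in these windows. The windows below belong to the called genes with the largest differences between ImmAMs and control mAMs whose window holds a searched motif and no annotated exon. Motifs are in capitals, and each window is read 5′ to 3′ on the strand of its gene.
Me1, chr9:86687278-86687527, minus strand, a start inside the gene with 1 match: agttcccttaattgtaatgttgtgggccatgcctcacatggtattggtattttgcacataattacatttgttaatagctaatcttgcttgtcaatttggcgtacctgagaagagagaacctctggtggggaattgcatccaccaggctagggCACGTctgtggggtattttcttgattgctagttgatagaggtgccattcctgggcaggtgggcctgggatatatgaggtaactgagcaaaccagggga
Hk2, chr6:82774455-82774704, minus strand, with 2 matches: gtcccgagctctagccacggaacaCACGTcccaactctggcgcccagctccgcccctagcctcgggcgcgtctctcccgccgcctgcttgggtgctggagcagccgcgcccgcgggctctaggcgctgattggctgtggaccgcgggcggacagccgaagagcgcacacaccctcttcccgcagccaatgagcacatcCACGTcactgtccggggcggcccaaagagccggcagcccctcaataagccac
Taldo1, chr7:141391910-141392159, plus strand, with 1 match: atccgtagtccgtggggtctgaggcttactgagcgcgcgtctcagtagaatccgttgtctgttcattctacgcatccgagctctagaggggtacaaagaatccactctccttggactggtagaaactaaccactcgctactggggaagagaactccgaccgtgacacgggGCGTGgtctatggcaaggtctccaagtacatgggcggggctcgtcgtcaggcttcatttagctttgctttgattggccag
Ldha, chr7:46845554-46845803, plus strand, also a start inside the gene, with 5 matches to ACGTG of which 4 form 2 copies of CACGTG: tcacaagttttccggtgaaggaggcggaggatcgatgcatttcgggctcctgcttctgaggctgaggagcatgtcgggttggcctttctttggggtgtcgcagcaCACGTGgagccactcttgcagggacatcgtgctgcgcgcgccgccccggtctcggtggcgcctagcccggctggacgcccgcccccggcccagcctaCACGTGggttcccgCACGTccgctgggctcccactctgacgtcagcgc
A further *Ldha* window without annotated exon holds 1 GCGTG and is not shown. *Hk2* rose in ImmAMs while *Ldha*, *Taldo1* and *Me1* fell (values below), so windows with these letters stood before genes that moved in both directions.

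In control mAMs, single genes of the pathways differed widely in level. Per kilobase of annotated exon (GENCODE vM21), the glycolytic enzyme *Aldoa* (aldolase A) was highest at 370.2 CPM per kb, followed by *Taldo1* (transaldolase) at 280.4 CPM per kb, *Pkm* (pyruvate kinase) at 155 CPM per kb and *Idh1* (cytosolic isocitrate dehydrogenase, a source of NADPH) at 146 CPM per kb. This order depends on the length used, and *Idh1* stood at 175 CPM per kb of its longest transcript. At the low end, *Pcx* (pyruvate carboxylase), *Me1* (cytosolic malic enzyme) and *Pfkm* (muscle-type phosphofructokinase) stood at 0.869, 0.840 and 0.705 CPM per kb, and *Fbp1* had no read. Summed over its genes, glycolysis stood at 4341 ± 204 CPM (SD, n = 4) in control mAMs, 4013 ± 15.98 CPM (n = 3) in RXR-deficient mAMs and 3655 ± 121 CPM (n = 3) in ImmAMs. The pentose phosphate pathway stood at 2128 ± 111, 1805 ± 79.1 and 1454 ± 32.0 CPM, and the TCA cycle at 2313 ± 112, 2154 ± 56.5 and 1605 ± 11.7 CPM. Relative to control mAMs, the sum in ImmAMs was 84.2% for glycolysis, 68.3% for the pentose phosphate pathway and 69.4% for the TCA cycle, and 92.4%, 84.8% and 93.1% in RXR-deficient mAMs. The 3 ImmAM libraries lay below all control libraries in each sum. mAM_KO replicate 4 stood apart from replicates 1 to 3 for glycolysis, at 4797 CPM against 3999 to 4030 CPM, and for the pentose phosphate pathway, at 2207 CPM against 1748 to 1896 CPM, and lay next to them for the TCA cycle, at 2219 CPM against 2107 to 2217 CPM. The sums cover different numbers of genes and are not scaled to gene length, so they compare groups within a pathway and not the pathways. They also weigh abundant genes most, so the genes were next compared 1 by 1.

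**Figure D1:**
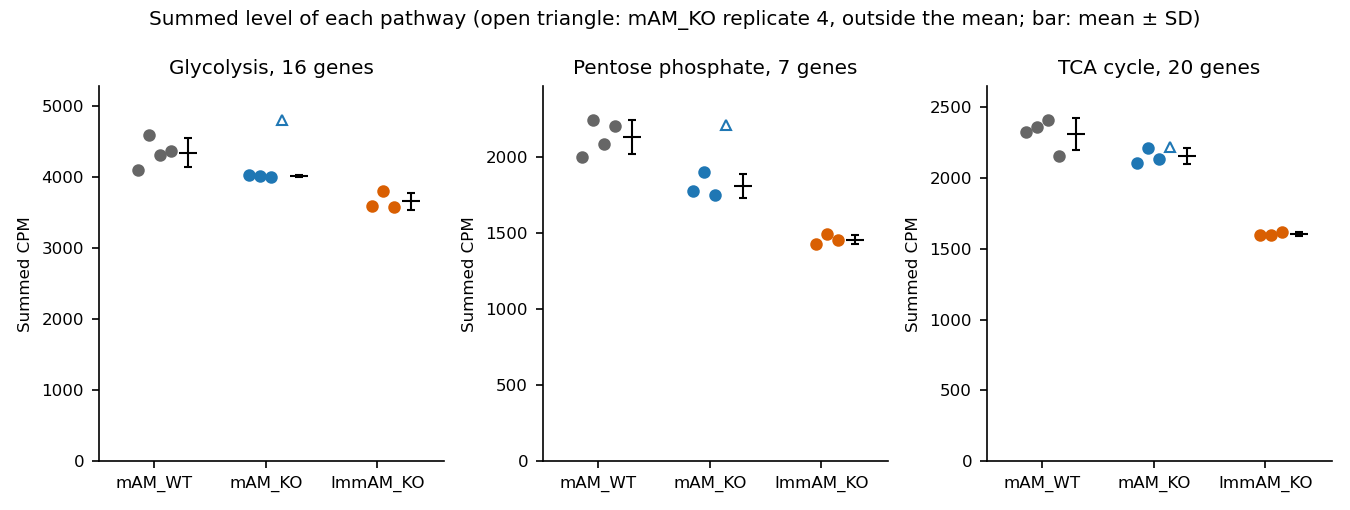
Summed CPM (vertical axis, from 0) of the 16 glycolysis, 7 pentose phosphate and 20 TCA cycle genes in each library of control mAMs (mAM_WT), RXR-deficient mAMs (mAM_KO) and ImmAMs (ImmAM_KO). Points are libraries, the open triangle is mAM_KO replicate 4, which is outside the mean, and bars are the mean ± SD, and ImmAMs sit lowest in all 3 panels.

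The comparison of RXR-deficient with control mAMs asks what the loss of RXRs changes within mature cells. All 43 passed the filter on low values (1 CPM in 3 or more libraries), *Fbp1* only through the groups where it was high. Of the 43 genes, 1 was higher (*Fbp1*) and 5 were lower (limma, Benjamini-Hochberg adjusted p, called p-adj, under 0.05 over 12889 genes tested). Over all genes tested, 4.84% were called, 2.25% higher and 2.59% lower. The median difference was -0.10 on the log2 scale over the 43 genes and -0.0019 over all genes. With mAM_KO replicate 4 in the fit, 2 of the 43 were called, 1 in each direction, beside 2.61% of all genes.

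*Fbp1* (ENSMUSG00000069805, chr13:62864753-62888282, minus strand) encodes fructose-bisphosphatase 1, which runs the phosphofructokinase step backwards in gluconeogenesis. It had 0 reads in each of the 4 control libraries, 11, 27 and 62 reads in the RXR-deficient libraries (0.531, 1.17 and 3.46 CPM), 46 reads (2.13 CPM) in mAM_KO replicate 4 and 74, 90 and 99 reads in ImmAMs (4.44, 4.20 and 5.23 CPM). No library of either CD11cCre+ group was at 0. Against a floor of 3 reads over the control group, it was at least 57.8-fold higher in RXR-deficient mAMs, at least 30.7-fold without mAM_KO replicate 3, and at least 168-fold higher in ImmAMs, or at least 109.8-fold without mAM_WT replicate 1. *Fbp1* reached the filter of 1 CPM only through CD11cCre+ libraries, so it had to differ once it was tested, and the limma p-adj against control mAMs (0.00197 and 3.09e-06) are given as a description, with no support drawn from them. Between ImmAMs and RXR-deficient mAMs it was not called (log2 difference 1.83, SE 0.85, p-adj = 0.107), and the RXR-deficient libraries spread widely.

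*Idh2*, the mitochondrial NADP-dependent isocitrate dehydrogenase, was the TCA cycle gene with the lowest p-adj among RXR-deficient mAMs. It stood at 80.3, 75.6, 88.9 and 84.9 CPM in control mAMs, at 48.7, 63.4 and 49.7 CPM in RXR-deficient mAMs, at 64.1 CPM in mAM_KO replicate 4 and at 54.2, 59.7 and 55.0 CPM in ImmAMs. Every CD11cCre+ library lay below every control library. It fell in RXR-deficient mAMs by 0.62 (SE 0.10, p-adj = 0.00576) on the log2 scale, and with mAM_KO replicate 4 in the fit the p-adj was 0.00943. It also fell in ImmAMs, by 0.55 (SE 0.10, p-adj = 4.91e-04), and the 2 CD11cCre+ groups differed by 0.07 (SE 0.10, p-adj = 0.636).

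The other genes called in RXR-deficient mAMs had smaller differences, and their calls were lost with mAM_KO replicate 4. *Tpi1* (triose phosphate isomerase) stood at 111, 131, 129.8 and 125 CPM in control mAMs, 100.3, 98.8 and 97.2 CPM in RXR-deficient mAMs and 120 CPM in replicate 4. Its log2 difference was -0.32 (SE 0.07, p-adj = 0.0242), and p-adj was 0.134 with replicate 4. *Tkt* (transketolase, of the non-oxidative pentose phosphate branch) stood at 498, 559.7, 509 and 557 CPM in control mAMs, 424, 441 and 440.0 CPM in RXR-deficient mAMs and 536 CPM in replicate 4. The log2 difference of *Tkt* was -0.29 (SE 0.06, p-adj = 0.0253), with a p-adj of 0.209 once replicate 4 was included. *Rpia* (ribose 5-phosphate isomerase) stood at 72.2, 71.8, 72.9 and 73.6 CPM in control mAMs, 60.2, 59.8 and 60.4 CPM in RXR-deficient mAMs and 73.3 CPM in replicate 4. For *Rpia* the log2 difference was -0.27 (SE 0.07, p-adj = 0.0415, and 0.242 with replicate 4). *Mdh2* (mitochondrial malate dehydrogenase) stood at 143, 183, 159 and 178 CPM in control mAMs, 135, 134 and 126 CPM in RXR-deficient mAMs and 166 CPM in replicate 4. Its difference of -0.32 (SE 0.08, p-adj = 0.0466) had a p-adj of 0.243 with replicate 4. In all 4 genes, replicates 1 to 3 lay below every control library and replicate 4 lay among the control libraries. Leaving out 1 library at a time also ended calls. The p-adj of *Tpi1* reached 0.0912 (lost without mAM_WT replicate 2 or 3 or mAM_KO replicate 1 or 3), that of *Tkt* 0.0994 (without mAM_WT replicate 2 or mAM_KO replicate 1 or 3), that of *Rpia* 0.120 (without any 1 library but ImmAM_KO replicate 2) and that of *Mdh2* 0.156 (without any 1 library but mAM_WT replicate 1).

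Among the genes not called in RXR-deficient mAMs, *Me1* had the lowest log2 difference of all 43 genes, -1.04, with few reads that are given below. *Taldo1*, *Pgd* (6-phosphogluconate dehydrogenase), *Aldoa* and *Me2* (mitochondrial malic enzyme), also not called, had log2 differences of -0.29, -0.25, -0.25 and -0.31 with p-adj of 0.0569, 0.0569, 0.0665 and 0.0700. The first step of the pentose phosphate pathway, *G6pdx* (glucose 6-phosphate dehydrogenase), stood at 204 ± 9.30 CPM in control mAMs and 200.4 ± 5.62 CPM in RXR-deficient mAMs, a log2 difference of -0.02 (SE 0.06, p-adj = 0.852). *Hk2* (hexokinase 2) had 48.6 to 80.3 CPM over the RXR-deficient libraries, a range that enclosed all control libraries.

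**Figure D2:**
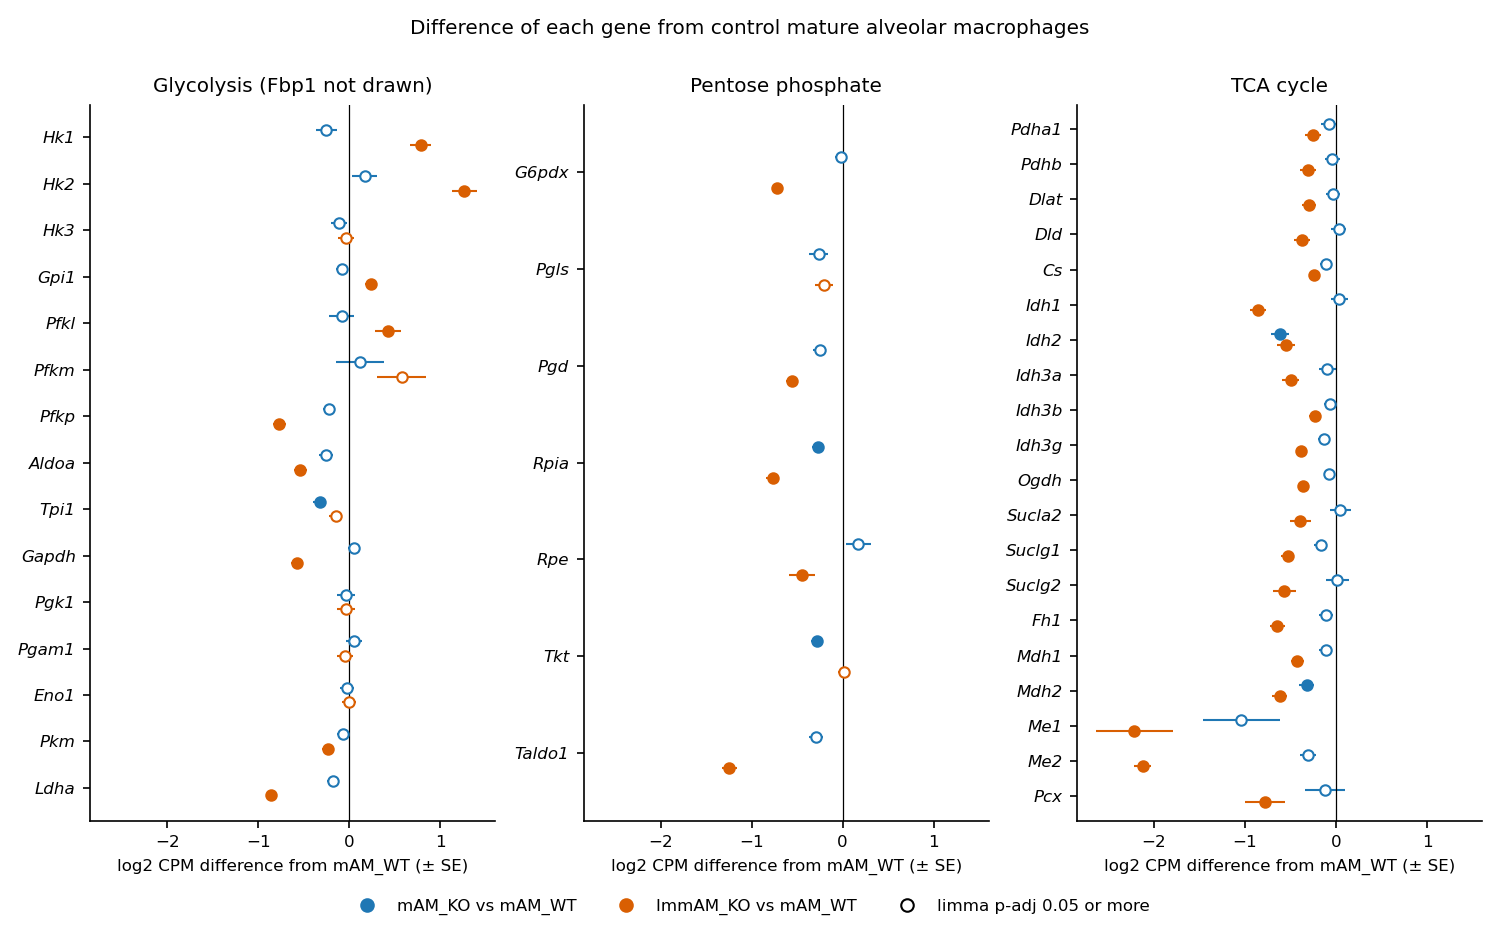
Difference from control mAMs in log2 CPM (horizontal axis) for RXR-deficient mAMs (blue) and ImmAMs (orange), with bars for the SE of the limma fit and open points where p-adj was 0.05 or more. *Fbp1* is not drawn because all control libraries had 0 reads. All 20 TCA cycle genes lie below 0 and filled in ImmAMs, while the glycolysis genes lie on both sides.

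ImmAMs differed from control mAMs in most of these genes, and the pathways moved differently. All 20 TCA cycle genes were lower, 5 of the 7 pentose phosphate genes were lower and none was higher, and in glycolysis 5 of 16 were higher (*Fbp1* among them) and 5 lower. In all, 35 of the 43 genes were called, 5 higher and 30 lower. Over all genes tested 48.1% were called, 22.8% higher and 25.3% lower, so a call by itself was common in this comparison. The median log2 difference was -0.46 for the TCA cycle, -0.56 for the pentose phosphate pathway, -0.04 for glycolysis and -0.0025 for all genes. Compared directly with RXR-deficient mAMs, which is also the test of whether the 2 CD11cCre+ groups differ in their difference from control, 29 of the 43 genes were called, 5 higher and 24 lower, beside 37.9% of all genes, 17.7% higher and 20.2% lower. These were 8 glycolysis genes (4 in each direction), 6 pentose phosphate genes (1 higher, 5 lower) and 15 TCA cycle genes (all lower).

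The first step of glycolysis, the phosphorylation of glucose by hexokinases, rose in ImmAMs for 2 of its 3 genes. *Hk2* (ENSMUSG00000000628, chr6:82725025-82774454) stood at 59.2, 61.1, 54.9 and 54.2 CPM in control mAMs, 68.4, 48.6 and 80.3 CPM in RXR-deficient mAMs (76.0 CPM in replicate 4) and 142, 147 and 125 CPM in ImmAMs. All ImmAM libraries lay above all others. *Hk2* rose by 1.27 (SE 0.14, p-adj = 5.98e-06) against control mAMs and by 1.10 (SE 0.14, p-adj = 6.02e-05) against RXR-deficient mAMs. *Hk1* (ENSMUSG00000037012, chr10:62268855-62379908), the widely expressed hexokinase, stood at 28.0, 33.3, 30.1 and 26.3 CPM in control mAMs, 20.9, 25.4 and 28.1 CPM in RXR-deficient mAMs (28.9 CPM in replicate 4) and 47.6, 54.4 and 49.7 CPM in ImmAMs. It rose by 0.78 (SE 0.11, p-adj = 9.78e-05) and by 1.03 (SE 0.12, p-adj = 2.37e-05) in the same 2 comparisons. *Hk3*, a hexokinase of myeloid cells, stood at 44.9 ± 3.69 CPM (n = 4) in control mAMs, 41.5 ± 1.94 CPM (n = 3) in RXR-deficient mAMs and 43.8 ± 3.56 CPM (n = 3) in ImmAMs, and was called in no comparison. Per kilobase of exon, *Hk3* made up 48.3% ± 3.51 of the 3 hexokinases in control mAMs and 29.0% ± 1.48 in ImmAMs, and *Hk2* 38.0% ± 2.41 and 56.5% ± 2.19. The gene with the largest share was thus *Hk3* in each control library and *Hk2* in each ImmAM library, and in RXR-deficient mAMs the 2 had 45.1% ± 4.56 and 43.3% ± 5.94.

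Phosphofructokinase, which commits sugar to glycolysis, moved in opposite directions between its genes. *Pfkp*, the platelet type, stood at 262, 269, 251 and 260.3 CPM in control mAMs, 213, 240.0 and 218 CPM in RXR-deficient mAMs (241 CPM in replicate 4) and 157, 163 and 140.3 CPM in ImmAMs, and the 3 groups did not overlap in the 10 libraries of the fit. It fell by 0.77 (SE 0.07, p-adj = 1.19e-06) in ImmAMs against control mAMs. *Pfkl*, the liver type, stood at 56.7, 62.6, 60.1 and 62.3 CPM in control mAMs and 77.5, 94.3 and 73.2 CPM in ImmAMs, but RXR-deficient libraries ranged from 44.8 to 73.8 CPM and replicate 4 reached 79.4 CPM, inside the ImmAM range. *Pfkl* rose by 0.43 (SE 0.14, p-adj = 0.0230) against control mAMs, and the call was lost without mAM_WT replicate 1 or ImmAM_KO replicate 3 (p-adj up to 0.115). Against RXR-deficient mAMs it rose by 0.51 (SE 0.15, p-adj = 0.0166), a call lost with replicate 4 (p-adj = 0.0738) and without mAM_KO replicate 2 or ImmAM_KO replicate 3 (p-adj up to 0.0794). *Pfkm* had 2.36 ± 0.542 CPM in control mAMs and 3.52 ± 0.856 CPM in ImmAMs (p-adj = 0.0911). Per kilobase, *Pfkp* made up 66.6% ± 1.20 of the family in control mAMs and 46.3% ± 2.08 in ImmAMs, and *Pfkl* 31.0% ± 0.974 and 49.4% ± 1.91. In RXR-deficient mAMs their shares were 64.0% ± 6.37 and 33.2% ± 6.48.

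**Figure D3:**
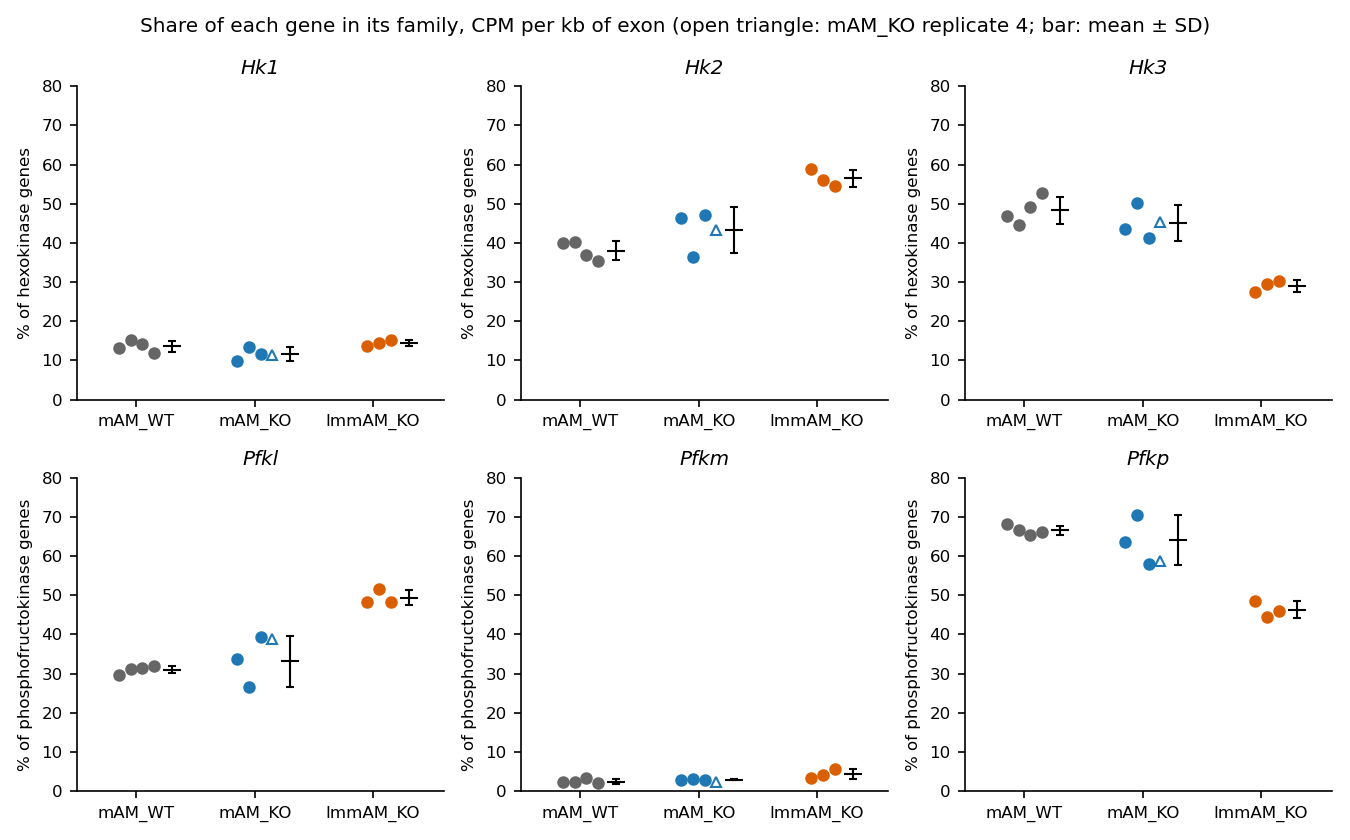
Share of each hexokinase gene (top) and phosphofructokinase gene (bottom) in the CPM per kilobase of exon of its family, in percent (vertical axis, 0 to 80), by library. Points are libraries, the open triangle is mAM_KO replicate 4 and bars are the mean ± SD, and *Hk2* and *Pfkl* take a larger share in ImmAMs than in control mAMs.

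Among the other steps of glycolysis, 4 genes fell and *Gpi1* rose in ImmAMs against control mAMs. *Ldha* (ENSMUSG00000063229, chr7:46841475-46855627), which reduces pyruvate to lactate, stood at 421, 461, 435 and 424 CPM in control mAMs, 375, 398 and 377 CPM in RXR-deficient mAMs (446 CPM in replicate 4) and 229.6, 241 and 249.9 CPM in ImmAMs. The ImmAM libraries lay below all others, and *Ldha* fell by 0.86 (SE 0.06, p-adj = 1.09e-07) against control mAMs and by 0.67 (SE 0.06, p-adj = 3.28e-06) against RXR-deficient mAMs. *Gapdh* (glyceraldehyde 3-phosphate dehydrogenase) had 310.1 ± 10.9 CPM in control mAMs, 323 ± 11.3 CPM in RXR-deficient mAMs and 209 ± 16.2 CPM in ImmAMs, and fell by 0.57 against control and by 0.63 (SE 0.07, p-adj = 1.39e-05) against RXR-deficient mAMs. *Aldoa* fell by 0.54 against control mAMs, from 1078 ± 84.1 to 741 ± 17.0 CPM, and by 0.28 against RXR-deficient mAMs, the latter call being lost without mAM_KO replicate 2 (p-adj = 0.0521). *Pkm* fell by 0.23 (p-adj = 0.0103) against control mAMs, a call lost with mAM_KO replicate 4 in the fit (at 942 CPM, above all 4 control libraries) and without ImmAM_KO replicate 4 (p-adj = 0.0528). *Gpi1* (glucose 6-phosphate isomerase) rose by 0.24 (p-adj = 0.00826), from 365 ± 20.6 to 429 ± 23.8 CPM, and by 0.31 against RXR-deficient mAMs. *Tpi1*, *Pgk1* (phosphoglycerate kinase), *Pgam1* (phosphoglycerate mutase) and *Eno1* (enolase) were not called in ImmAMs against either group, with log2 differences from control mAMs of -0.15, -0.04, -0.05 and 0.00. Reads of several of these genes cannot be assigned with certainty, since 53.4% of the 60-base windows of *Pgk1*, 35.7% of *Pgam1*, 24.7% of *Eno1*, 23.8% of *Gapdh* and 22.3% of *Pkm* also occur in other genes or pseudogenes.

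In the pentose phosphate pathway, both branches were lower in ImmAMs. *Taldo1* (ENSMUSG00000025503, chr7:141392199-141402968) stood at 566, 630.5, 585 and 654 CPM in control mAMs, 473, 565 and 458 CPM in RXR-deficient mAMs (618 CPM in replicate 4) and 247, 258 and 264 CPM in ImmAMs. All ImmAM libraries were far below both mature groups, and *Taldo1* fell by 1.24 (SE 0.08, p-adj = 5.41e-08) against control mAMs and by 0.95 (SE 0.09, p-adj = 2.09e-06) against RXR-deficient mAMs. *G6pdx* stood at 207, 214, 203 and 191 CPM in control mAMs, 202, 205 and 194 CPM in RXR-deficient mAMs (202 CPM in replicate 4) and 125, 125 and 120.3 CPM in ImmAMs. The 2 mature groups overlapped and the ImmAMs lay below both, with a fall of 0.72 (SE 0.06, p-adj = 5.23e-07) and of 0.70 (SE 0.06, p-adj = 2.25e-06). *Rpia* stood at 39.7, 43.0 and 45.3 CPM in ImmAMs, below the values of the mature groups given above, and fell by 0.77 (SE 0.07, p-adj = 9.75e-07) against control mAMs and by 0.50 against RXR-deficient mAMs. *Pgd* stood at 607 ± 47.4 CPM in control mAMs, 509 ± 18.4 CPM in RXR-deficient mAMs and 412 ± 15.1 CPM in ImmAMs, and fell by 0.56 and by 0.30. *Rpe* (ribulose 5-phosphate epimerase) fell by 0.62 (SE 0.15, p-adj = 0.00600) against RXR-deficient mAMs and by 0.44 (p-adj = 0.0205) against control mAMs, where mAM_WT replicate 4 (40.5 CPM) lay inside the ImmAM range of 31.7 to 44.2 CPM and the call was lost without mAM_WT replicate 1 or 3 or ImmAM_KO replicate 3 (p-adj up to 0.110).

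*Tkt* did not follow the rest of the pathway. It stood at 518, 556 and 532 CPM in ImmAMs against 531 ± 32.0 CPM in control mAMs, a log2 difference of 0.01 (SE 0.06, p-adj = 0.884), and was higher by 0.30 (SE 0.07, p-adj = 0.00333) than in RXR-deficient mAMs. That second call was lost with replicate 4 in the fit (p-adj = 0.0514). *Pgls* (6-phosphogluconolactonase) was not called in any of the 3 comparisons, at 52.5 ± 7.16, 43.6 ± 2.27 and 45.4 ± 3.34 CPM, and 18.5% of its windows occur in other genes. Summed by branch, the oxidative genes *G6pdx*, *Pgls* and *Pgd* stood at 863 ± 50.6 CPM in control mAMs, 753 ± 23.8 CPM in RXR-deficient mAMs and 581 ± 18.0 CPM in ImmAMs, and the non-oxidative genes at 1265 ± 65.2, 1053 ± 63.8 and 873 ± 24.3 CPM. Within the non-oxidative branch, *Taldo1* and *Tkt* thus moved apart.

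**Figure D4:**
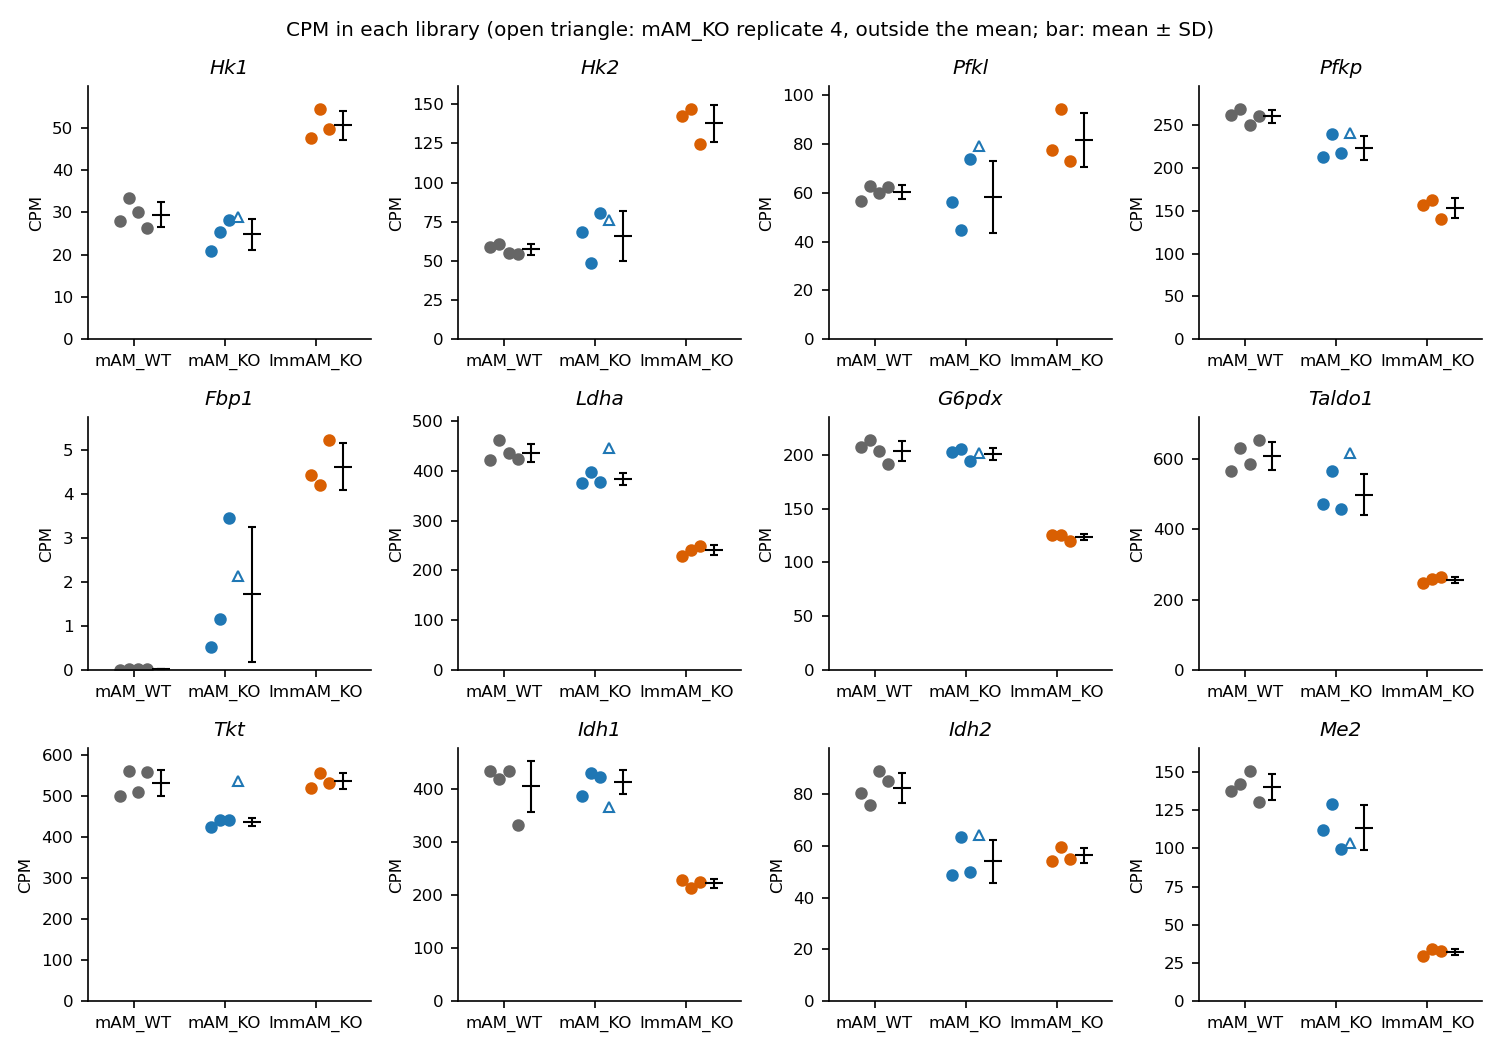
CPM (vertical axes, each from 0) of 12 genes in each library of control mAMs (mAM_WT), RXR-deficient mAMs (mAM_KO) and ImmAMs (ImmAM_KO). Points are libraries, the open triangle is mAM_KO replicate 4, bars are the mean ± SD without it, and ImmAMs lie above both mature groups in *Hk1* and *Hk2* and below both in *Pfkp*, *Ldha*, *G6pdx*, *Taldo1*, *Idh1* and *Me2*.

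Of the 20 genes grouped with the TCA cycle, *Me1*, *Me2* and *Idh1* had the largest log2 differences between ImmAMs and control mAMs. They encode malic enzymes and the cytosolic isocitrate dehydrogenase, which lie beside the cycle itself. *Me2* stood at 138, 142, 151 and 130.2 CPM in control mAMs, 112, 129 and 99.98 CPM in RXR-deficient mAMs (104 CPM in replicate 4) and 29.7, 34.0 and 32.8 CPM in ImmAMs. It fell by 2.13 (SE 0.09, p-adj = 1.51e-09) against control mAMs and by 1.82 (SE 0.10, p-adj = 2.16e-08) against RXR-deficient mAMs. *Me1* (ENSMUSG00000032418, chr9:86581371-86695953) was low throughout, with 125, 90, 73 and 65 reads in control mAMs, 20, 64 and 26 reads in RXR-deficient mAMs, 41 reads in replicate 4 and 7, 13 and 22 reads in ImmAMs. This is 3.23 ± 0.364, 1.72 ± 0.923 and 0.752 ± 0.383 CPM, a fall of 2.22 (SE 0.42, p-adj = 8.13e-04) in ImmAMs against control mAMs, and 19.9% of its windows occur in other genes. *Me2* made up 95.8% ± 0.575 of both malic enzymes per kilobase in control mAMs and 95.8% ± 1.93 in ImmAMs. *Idh1* (ENSMUSG00000025950, chr1:65158616-65186500) stood at 433, 418, 433 and 331 CPM in control mAMs, 386, 429.5 and 422 CPM in RXR-deficient mAMs (365 CPM in replicate 4) and 228, 212 and 224 CPM in ImmAMs. The ImmAM libraries lay below all mature ones, with a fall of 0.86 (SE 0.09, p-adj = 5.07e-06) and of 0.90 (SE 0.10, p-adj = 1.01e-05). *Idh1* was not called in RXR-deficient mAMs (0.04, SE 0.09, p-adj = 0.835) whereas *Idh2* was, so the share of *Idh2* in both genes per kilobase was 18.1% ± 2.42 in control mAMs, 12.2% ± 1.26 in RXR-deficient mAMs and 21.4% ± 1.54 in ImmAMs.

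The remaining genes of this group, which include the steps of the cycle itself, had smaller differences in ImmAMs, all in the same direction. *Fh1* (fumarase) stood at 41.7, 45.1, 44.7 and 41.8 CPM in control mAMs, 38.6, 42.8 and 39.0 CPM in RXR-deficient mAMs (47.7 CPM in replicate 4) and 28.6, 26.6 and 28.0 CPM in ImmAMs, and fell by 0.64 (SE 0.08, p-adj = 1.94e-05) against control mAMs and by 0.53 against RXR-deficient mAMs. *Mdh2* fell by 0.62 against control mAMs to 107 ± 3.38 CPM, and *Mdh1*, the cytosolic malate dehydrogenase, by 0.43, from 141 ± 11.2 to 104 ± 3.08 CPM. Succinyl-CoA ligase, which makes ATP or GTP, fell for all 3 of its genes, by 0.57 for *Suclg2*, 0.53 for *Suclg1* and 0.39 for *Sucla2*, and the fall of *Suclg2* against RXR-deficient mAMs was 0.58 (SE 0.14, p-adj = 0.00455). The NAD-dependent isocitrate dehydrogenase fell by 0.50 for *Idh3a*, 0.38 for *Idh3g* and 0.23 for *Idh3b*, and their shares per kilobase were 11.7%, 50.7% and 37.6% in control mAMs and 10.5%, 49.1% and 40.4% in ImmAMs. *Ogdh* (oxoglutarate dehydrogenase) fell by 0.37, from 342 ± 11.6 to 265 ± 2.09 CPM, and *Cs* (citrate synthase) by 0.24, from 219 ± 10.1 to 185 ± 1.32 CPM. The pyruvate dehydrogenase complex, which feeds acetyl-CoA into the cycle, fell by 0.37 for *Dld*, 0.31 for *Pdhb*, 0.30 for *Dlat* and 0.25 for *Pdha1*. *Pcx*, which supplies oxaloacetate, fell by 0.78 (SE 0.22, p-adj = 0.00998), at 4.13 ± 0.444 CPM in control mAMs and 2.42 ± 0.535 CPM in ImmAMs. In *Pdha1* and *Sucla2* a control library (mAM_WT replicate 4, at 87.4 and 41.3 CPM) lay inside the ImmAM range, and the call was lost without 1 library for *Pdha1* (mAM_WT replicate 1, 2 or 3 or ImmAM_KO replicate 2 or 3, p-adj up to 0.118) and, without ImmAM_KO replicate 2, for *Sucla2*, *Pdhb* and *Idh3b* (p-adj of 0.0578, 0.0567 and 0.0785).

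Against RXR-deficient mAMs, 15 of the 20 TCA cycle genes were lower in ImmAMs, with *Me2*, *Idh1*, *Suclg2*, *Fh1* and *Pcx* in front. The 5 not called were *Pdha1*, *Cs*, *Idh2*, *Idh3b* and *Me1*, with log2 differences of -0.17, -0.12, 0.07, -0.17 and -1.17. Calls that were lost when 1 library was left out were those of *Pdhb* (mAM_KO replicate 2 or 3 or ImmAM_KO replicate 2 or 3, p-adj up to 0.138), *Dlat* (mAM_KO replicate 2 or ImmAM_KO replicate 4, up to 0.112), *Mdh2* (mAM_KO replicate 1 or 2 or ImmAM_KO replicate 3 or 4, up to 0.0615), *Sucla2* (ImmAM_KO replicate 2, 0.0514) and *Pcx* (mAM_WT replicate 1 or 3, mAM_KO replicate 1 or 2 or ImmAM_KO replicate 2 or 4, up to 0.119).

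Genes around the 3 pathways were counted from lists of their transporters and regulators, beside the 22.8% of all genes that rose and the 25.3% that fell in ImmAMs against control mAMs (median log2 difference -0.0025). Of 9 genes of glucose and lactate transport tested, 5 rose and 2 fell in ImmAMs against control mAMs, with a median log2 difference of 0.47. The glucose transporter *Slc2a1* (GLUT1) had 14.3 ± 1.296 CPM in control mAMs, 18.7 ± 4.43 CPM in RXR-deficient mAMs and 65.9 ± 5.38 CPM in ImmAMs, a log2 difference of 2.20 (SE 0.15, p-adj = 8.73e-08) between ImmAMs and control mAMs, and *Slc2a6* and *Slc2a3* rose by 2.42 and 2.74. In RXR-deficient mAMs, where 2.59% of all genes fell, 1 of the 9 was called, the lactate transporter *Slc16a1*, which fell by 0.70 (p-adj = 0.0311). Of 17 genes that control or branch from glycolysis, 6 rose and 5 fell in ImmAMs against control mAMs (median -0.06), shares not far from those of all genes, among them *Ldhb* (from 0.257 ± 0.105 to 8.23 ± 2.59 CPM), *Gpd1* (glycerol 3-phosphate dehydrogenase, from 68.1 ± 9.15 to 1.18 ± 0.489 CPM) and *Gpd2* (log2 difference -0.89). *Ldhb* passed the filter of 1 CPM through ImmAM libraries, so it had to differ once tested, and its rise is a description with no support drawn from it. *Gpd1* was also lower in RXR-deficient mAMs, at 25.2 ± 7.54 CPM (log2 difference -1.48, SE 0.29, p-adj = 0.0164). Of 10 genes of pyruvate entry, 2 rose and 4 fell in ImmAMs (median -0.14), again not far from the shares of all genes, and the kinases of pyruvate dehydrogenase *Pdk4* and *Pdk1* fell by 4.29 and 1.55 while the pyruvate carrier subunit *Mpc2* fell by 1.09. For RXR-deficient mAMs, 0 of these 10 genes passed in limma, edgeR or limma-voom, 1 passed in DESeq2, and 2 had an unadjusted p under 0.05 in limma. In RXR-deficient mAMs the call of *Slc16a1* was lost without mAM_WT replicate 3 or mAM_KO replicate 1 or 3 (p-adj up to 0.124), and that of *Gpd1* without mAM_KO replicate 3 (0.0729).

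Of 18 further genes of the TCA cycle and its carriers, 1 rose and 11 fell in ImmAMs, with a median log2 difference of -0.24, beside 22.8% and 25.3% of all genes. *Aco1* (cytosolic aconitase) fell by 1.09, *Slc25a1* (the mitochondrial citrate carrier) by 0.71 and *Got1* (cytosolic aspartate aminotransferase) rose by 1.67. In RXR-deficient mAMs 2 of the 18 fell, beside 2.59% of all genes, *Slc25a1* by 0.49 and *Slc25a11* (the oxoglutarate carrier) by 0.24, and the p-adj of *Slc25a11* was 0.317 with replicate 4. Of 6 other pentose phosphate genes, 3 fell and none rose in ImmAMs (*Dera*, *Shpk* and *Prps1*, by 0.84, 0.77 and 0.34), and *H6pd*, the glucose 6-phosphate dehydrogenase of the endoplasmic reticulum, fell by 0.39 in RXR-deficient mAMs. Of 12 hypoxia response genes outside the pathways, 8 rose and 2 fell in ImmAMs (median 0.37), beside 22.8% and 25.3% of all genes, and 1 rose in RXR-deficient mAMs, beside 2.25% of all genes (*Epas1*, which encodes HIF-2α, with a log2 difference of 0.83 in RXR-deficient mAMs and 0.99 in ImmAMs). In RXR-deficient mAMs, leaving out 1 library ended the call of *Slc25a11* whichever library it was (p-adj up to 0.138), of *Epas1* for 8 of the 10 libraries, all but mAM_WT replicate 1 and mAM_KO replicate 2 (up to 0.145), of *H6pd* for mAM_WT replicate 2 or 3 or mAM_KO replicate 1 or 3 (up to 0.105) and of *Slc25a1* for mAM_KO replicate 3 (0.05001), and in ImmAMs that of *Prps1* for mAM_WT replicate 1 or 2 or ImmAM_KO replicate 3 (up to 0.1001). In ImmAMs *Car9* (a carbonic anhydrase) fell by 1.17 (p-adj = 0.0138) and *Ndrg1* rose by 0.82 (p-adj = 0.0427), calls that were lost without ImmAM_KO replicate 2 or 4 for *Car9* (p-adj up to 0.0703) and without any 1 library but mAM_WT replicate 2, mAM_KO replicate 1 or 2 for *Ndrg1* (up to 0.144).

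In ImmAMs against RXR-deficient mAMs, where 17.7% of all genes rose and 20.2% fell, 5 of the 9 transport genes rose and 0 fell, 4 of the 17 flux genes rose and 4 fell, 1 of the 10 pyruvate entry genes rose and 4 fell, 1 of the 6 pentose phosphate genes rose and 2 fell, 1 of the 18 TCA cycle genes rose and 7 fell, and 3 of the 12 hypoxia response genes rose and 1 fell. The shares of flux genes are near those of all genes. Among the transport genes, *Slc2a3*, *Slc2a1* and *Slc2a6* rose by 2.75, 1.85 and 1.80 on the log2 scale. *Gpd1* fell by 4.47 and *Gpd2* by 0.87, while *Ldhb* rose by 4.99, again only a description since it passed the filter through ImmAM libraries. *Pdk4*, *Pdk1* and *Mpc2* fell by 4.26, 1.47 and 0.93. *H6pd*, which had fallen in RXR-deficient mAMs, was higher by 0.55 in ImmAMs than in RXR-deficient mAMs, and *Dera* and *Shpk* fell by 0.76 and 0.61, the latter call being lost without mAM_KO replicate 1 or 2 or ImmAM_KO replicate 4 (p-adj up to 0.0950). *Got1* rose by 1.57, while *Aco1* and *Glud1* (glutamate dehydrogenase) fell by 1.06 and 0.44. Of the hypoxia response genes, *Bnip3l* (a mitophagy receptor) fell by 0.86, and *Kdm3a* (a histone demethylase) and *P4ha1* (a collagen prolyl hydroxylase) rose by 0.51 and 0.41.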

How the data were processed

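RNA from sorted alveolar macrophages was made into directional libraries, sequenced from 1 end over 60 bases. According to the study's methods and the submitters' processing notes, the authors trimmed reads with Cutadapt (reads under 30 bases were discarded), mapped them to the GRCm38 transcriptome (release 99) and counted genes with RSEM 1.3.1. TMM scaling was done in limma, and a gene had to reach 1 CPM in 3 or more samples to stay in the table. The deposited CPM are whole reads plus 0.5, times a step fixed in each library, and division by this step returned whole numbers for 100% of values (tolerance 0.01). No source used here gives the authors' versions of Cutadapt and limma.

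Groups came from the sample titles. The deposited CPM were taken as log2 with no further pseudocount. To match the group sizes given by the study, 10 libraries (all but mAM_KO replicate 4) were fitted in limma 3.58.1 (R 4.3.3). The fit had 3 group means and a variance trend, over the 12889 genes that reached 1 CPM in 3 or more of these libraries. Tests were two-sided and moderated, with Benjamini-Hochberg adjustment. p-adj under 0.05 was called. Labels do not say whether libraries of both CD11cCre+ groups came from the same mice, so p-values cover the spread between these libraries. Correlations of deviations between libraries of the same replicate number lay between -0.13 and 0.06, which cannot show whether the libraries were paired. Other fits used 11 libraries, 2 groups only, a pseudocount of 0.5 or 1, a CPM filter of 5 or none, other scaling (median ratio, quantile, none), eBayes without trend or robust, edgeR 4.0.16, DESeq2 1.42.0 or limma-voom on recovered reads, a replicate block, an *Xist* covariate, a minimum fold of 1.5, p-adj under 0.1, or left out 1 library. The fits were tested on simulated data.

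The 43 genes and the lists were chosen with earlier results of these data known. Every one of the 43 is named, and full statistics are given for the called genes or, beyond 10, for the 10 largest differences at 5 CPM or more. Of the other lists, the 3 largest differences at 5 CPM or more are named. Positions, exon lengths and shared 60-base windows come from GENCODE vM21 (GRCm38), and upstream sequences from RefSeq (GRCm38.p6).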

Additional observations from a re-analysis of the deposited data

Results flagged for a closer look

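Within the groups of 4 libraries, 7 of 86 sets of values (43 genes in control and in RXR-deficient mAMs, replicate 4 included) had 1 library far from the other 3, where chance gives about 1 in 20. In control mAMs these were *Idh1*, with mAM_WT replicate 4 at 331 CPM and the next library at 418 CPM, and *Pkm*, with mAM_WT replicate 1 at 716 CPM and the next at 792 CPM. In RXR-deficient mAMs it was replicate 4 in all 5 genes, at 118 CPM for *Idh3g*, 73.3 CPM for *Rpia*, 49.6 CPM for *Suclg1*, 536 CPM for *Tkt* and 120 CPM for *Tpi1*, above the other 3 libraries each time.

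The library labelled mAM_KO replicate 4, which is outside the group means, was above all 4 control libraries in 14 of the 43 genes. These were *Eno1* (632 CPM), *Fbp1* (2.13), *Fh1* (47.7), *Gpi1* (395), *Hk2* (76.0), *Idh3g* (118), *Ogdh* (363), *Pcx* (5.43), *Pfkl* (79.4), *Pgam1* (225), *Pgd* (664), *Pgk1* (149), *Pgls* (64.5) and *Pkm* (942 CPM). It was above replicates 1 to 3 of its own group in 26 genes and inside the range of the control libraries in 24. The shares over all genes were not computed, so these counts are a description only. Whether this library is the mAM_KO library that the study left out was not established here. The sources used here give no reason for the omission.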

How the results depend on the processing

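Of the 43 genes, 6 were called in RXR-deficient against control mAMs, and this count depended on the processing. It was 2 with all 11 libraries, 1 with only the 2 groups fitted (where *Fbp1* did not pass the filter), 2 without a variance trend, 2 with a fold of at least 1.5, 10 with *Xist* as a covariate, 12 in DESeq2 and 12 at p-adj under 0.1. Without single libraries it ranged from 2 to 8, with 2 without mAM_WT replicate 2, mAM_KO replicate 1 or mAM_KO replicate 3 and 3 without mAM_WT replicate 3. The cause of these shifts was not tested. In ImmAMs against control mAMs the count was 35, it was 14 with a fold of at least 1.5 and 32 to 35 without single libraries. Against RXR-deficient mAMs it was 29, 10 with that fold and 23 to 29 without single libraries. With a replicate block, 2 genes were called in RXR-deficient mAMs, and the numbers are not known to pair the libraries. Leaving aside the fold, 2 of the 6, 28 of the 35 and 21 of the 29 calls were kept in each alternative that tested the gene and without each library, and no call changed sign. The 2 were *Fbp1* and *Idh2*. *Fbp1*, also 1 of the 28, passed the filter only through CD11cCre+ libraries, so its kept calls add no support. It was not tested at a filter of 5 CPM or, for RXR-deficient mAMs, with only the 2 groups fitted. *Me1* and *Pcx* were not tested at 5 CPM. Scaling moved the median of all genes by at most 0.02 on the log2 scale. Shares per kilobase moved with the length used. With the longest transcript, the share of *Hk1* in control mAMs was 22.0% instead of 13.7%. *Hk3* (44.7%) stayed above *Hk2* (33.3%) in control mAMs, and *Hk2* (49.6%) above *Hk3* (27.0%) in ImmAMs. Depth limits *Me1*, *Pcx*, *Pfkm* and *Fbp1*, which had few reads.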
